A study of Rattus norvegicus with 16 samples.

Results

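The untreated kidney cortex of wild-type and BRCA1+/- rats was described here from 4 of the 16 arrays of the series: 2 wild-type and 2 heterozygous samples, chosen by their labels as normal cortex. The animals were male Jcl:SD (Sprague-Dawley) rats, either wild-type or carrying 1 altered copy of Brca1. The kind of alteration, and the age, vehicle and time of sampling of the untreated animals, are not given in the sources used here. The other 12 arrays came from rats of the same 2 genotypes that had received ferric nitrilotriacetate (Fe-NTA), an iron chelate that injures the proximal tubule, by intraperitoneal injection for 1 or 3 weeks from 4 weeks of age, and they enter only as a side comparison. Total RNA of the cortex, labelled with Cy3, was measured on 1 single-colour Agilent array per sample.

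The renal cortex holds the glomeruli, where blood is filtered, and the convoluted tubules that recover most of the filtrate. Proximal tubule cells make up most of its mass: they take back glucose, amino acids, phosphate and protein, run on fatty acid oxidation, and make glucose. Further along, the thick ascending limb dilutes the urine, the distal convoluted and connecting tubules tune sodium and calcium, and the collecting duct controls water and acid. Podocytes, endothelium, mesangial and smooth muscle cells, fibroblasts and immune cells make up the rest. BRCA1 is a tumour suppressor that repairs broken DNA by homologous recombination, and 1 working copy is generally enough for a cell to live and divide.

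Every level below is the log2 of the processed signal of a gene's brightest probe minus the 75th percentile of all probes on that array, so that 0 is the brightness of the probe at that percentile. Sets of 4 values are given in the order wild-type 1, wild-type 2, heterozygous 1, heterozygous 2. A percentile places a gene's mean over the 4 samples among 34680 genes with a value, from 0 for the dimmest to 100 for the brightest, with 50 as the middle. Such ranks order probe signals, not amounts of transcript, because probes differ in how well they bind.

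The 4 arrays resembled each other, with Pearson's r between 0.960 and 0.974 over 16007 genes, but not in brightness. Of the probes, 32.7% and 36.2% were well above background in the wild-type samples against 48.3% and 40.8% in the heterozygous samples, and the signal at the 75th percentile was 20.1 and 25.0 against 58.5 and 35.5. Each of 2 slides held 1 sample of each genotype. On both slides the wild-type sample lay in the first row and the heterozygous one in the second, so that row and genotype cannot be told apart. No spot was saturated. A probe at the floor reads lower on a brighter array once it is scaled: Alb, the liver's albumin, was well above background on none of the 4 and read -3.28, -3.71, -4.94 and -4.12.

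The brightest signals came from genes for ribosomes, mitochondria, iron storage and the proximal tubule, mixed with probes whose labelled gene is doubtful. The ribosomal protein gene Rpl32 read 11.80, 11.77, 11.49 and 11.54 by 1 of its 7 probes, while its other probes had means from 5.98 to 8.12. The mitochondrial gene CYTB had a mean of 11.38. Kap, the androgen-regulated kidney protein made by the proximal tubule, read 11.09, 10.88, 10.20 and 11.40. Of these genes Kap varied most, with heterozygous 1 the lowest. Ftl1, the light chain of the iron store ferritin, read 11.04, 10.72, 10.89 and 10.90. Ribosomal RNA (Rn45s at a mean of 12.79, Rn18s at 11.70) and the signal recognition particle RNA Rn7sl1 (11.93) stood among the top 13 places.

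Several of the brightest probes carry names of genes that other probes place far lower, which limits how far the ranking can be read. Whether probe sequence set these signals was not tested. Csrnp2, a nuclear protein, had 1 probe at a mean of 11.56 and another at -1.36. The 200 brightest probes included those of 67 genes with more than 1 probe on the array, and for 31 of these genes the probes differed by over 5 log2 units. Of these 200 probes, 14% had a GC content of 60% or more, against 0.871% of all probes. The 30-base stretches below, from the 60-base probes, hold in capitals runs shared by probes of unrelated genes, which were picked after their signals were seen.
LOC102555855: gttgtaagtcCCCGCCCCttgtatatttca
Csrnp2: ttgtcCCCGCCCCtttaactggtaataagt
LOC103690864: tccgcgtCCCGCCCCttgtctgccttctca
Smc4: cagtccctgGCCCTGGGTTCagtccacagc
Ctrb1: agccctcatGCCCTGGGTTCagcagatctt

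The run CCCGCCCC was in 13 of 45483 probes, of which 13 were well above background on all 4 arrays, with a median level of 5.98. Its reverse complement GGGGCGGG was in 9 probes with a median of -1.44, and the median of all probes was -2.85. Because CCCGCCCC was picked after the signals were seen, its median cannot test a link between the run and signal. Smc4, a condensin subunit, had the bright probe shown at 10.15 and another at -1.03. The run in Smc4 was also in the probe of the pancreatic gene Ctrb1, which read -0.51, so the run did not mark bright probes alone. Among the genes of the lists described here, 283 of 762 had more than 1 probe and 145 of these had probes over 2 log2 units apart. The levels of Prox1, Vwf, Tp63, Krt7, Cd4, Itgam, Wnk1, Cela1 and Xrcc3 therefore rest on 1 bright probe each.

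The list of genes shared along the proximal tubule had the highest median rank of the nephron lists. Of 33 genes shared along the proximal tubule, 32 were well above background on all 4 arrays, and their median stood at the 97.8th percentile. Slc34a1, the phosphate transporter of the brush border, read 8.61, 8.72, 8.61 and 8.22, with a second probe at a mean of 0.617. The organic anion transporter Slc22a6 read 8.35, 8.84, 8.89 and 7.92, and the water channel Aqp1 read 7.82, 8.35, 8.09 and 7.69. The 4 samples lay close together for these transporters, and heterozygous sample 2 was the lowest for each. Lrp2, the megalin receptor that takes up filtered protein, read 6.16, 6.48, 6.33 and 5.95.

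Early and late proximal segments differed in how evenly they read. All 12 genes of the S1 and S2 segments were well above background on all 4 arrays, with a median at the 93.5th percentile. Slc5a2, the glucose transporter SGLT2, read 6.54, 6.98, 6.47 and 5.72, and the plasma glutathione peroxidase Gpx3 read 8.66, 9.11, 9.10 and 8.26. Of 12 genes of the S3 segment, 8 were above background on all 4, with a median at the 84.2nd percentile. Slco1a1, an organic anion transporter, read 2.15, -0.20, 1.02 and 3.03, and Slc7a13, an amino acid transporter, read 2.29, 0.04, 1.01 and 3.38. Aadat, an enzyme of tryptophan and lysine breakdown, read 5.31, 3.45, 4.20 and 6.31. In all of these genes wild-type 1 and heterozygous 2, which shared a slide, stood above the other pair, and the genotypes overlapped. Slco1a1 and Cyp2c11, a male-specific steroid hydroxylase (0.67, -3.46, -1.54 and 0.37), were well above background on none of the 12 Fe-NTA arrays.

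**Figure D1:**
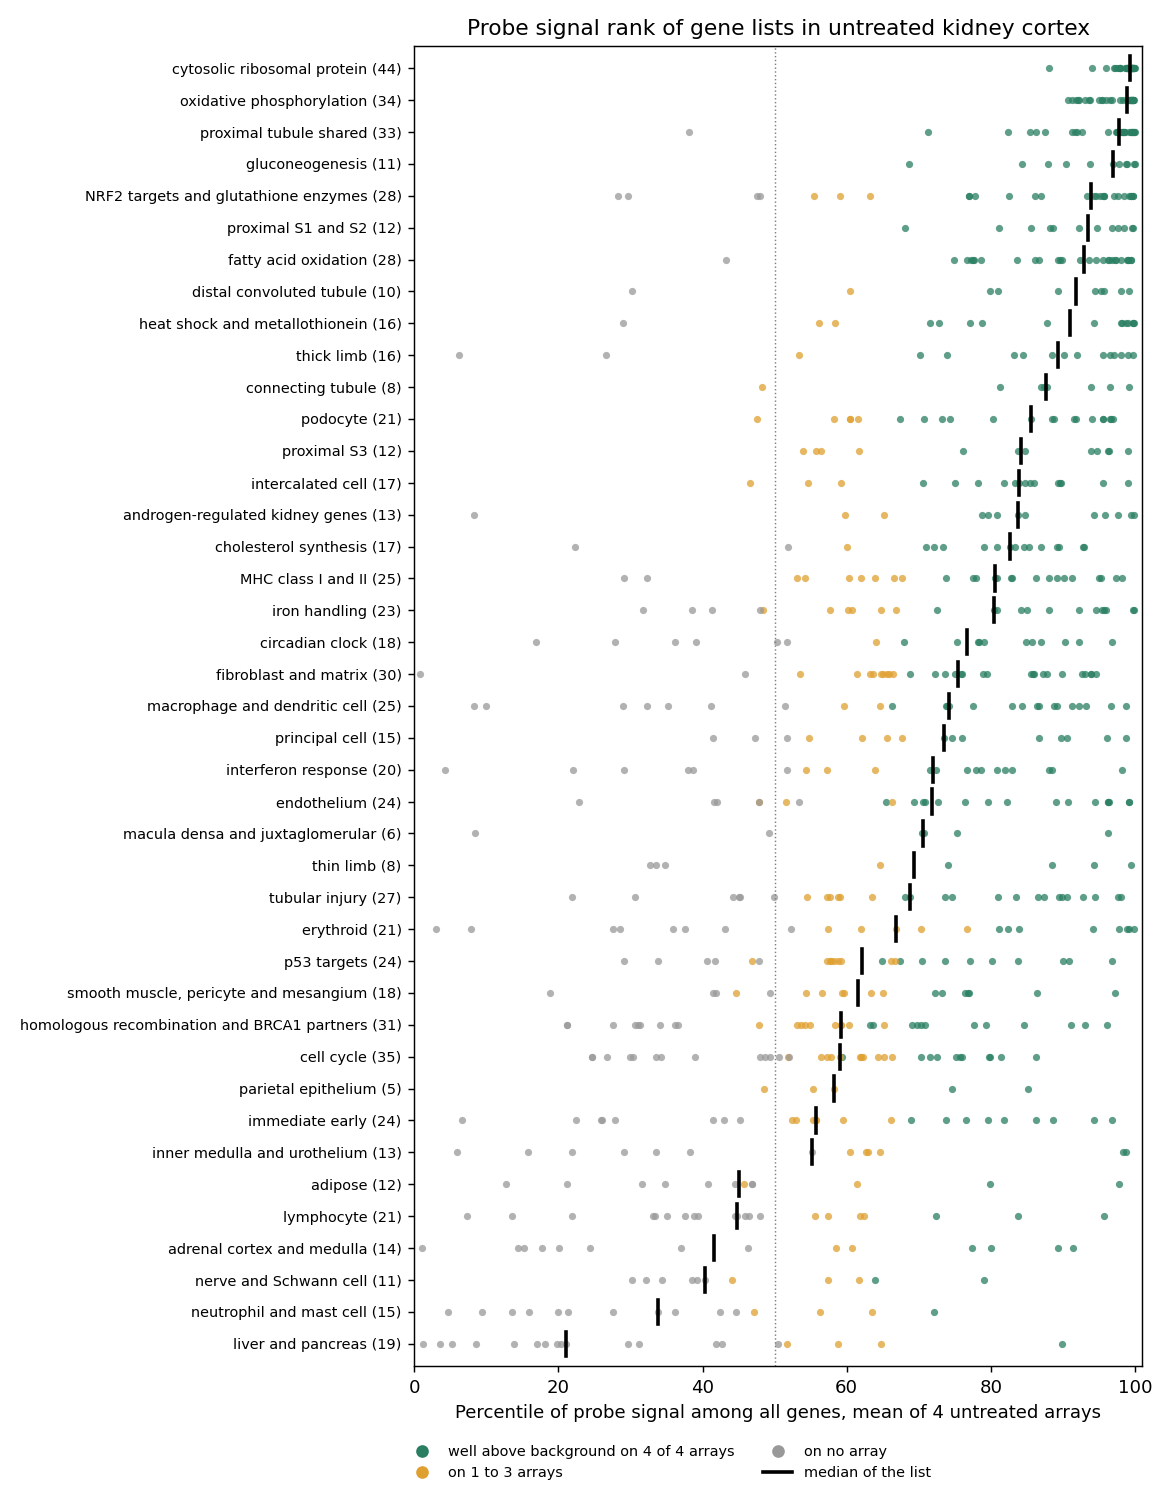
Percentile of the mean untreated signal (horizontal axis, 0 dimmest to 100 brightest of 34680 genes) for the genes of each list (number of genes in brackets), with each gene a point coloured by how many of the 4 arrays had it well above background, a black bar at the list's median and a dotted line at 50. Ribosomal (99.3), oxidative phosphorylation (99.0) and proximal tubule genes (97.8) sit at the right, and liver and pancreas genes (21.1) at the left.

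The promoters of proximal tubule genes were read for 4 motifs of HNF1 and HNF4. The 57 members of the 3 proximal lists had 49 RefSeq promoters on GRCr8, of 300 bases around the start, and a gene can have more than 1. The motif TGNACTTTG, searched on both strands, was in 4 of the 49 (8.16%), in Lrp2, Slc3a1, Aadat and Cubn, and in 1.24% of all 33469 promoters. The motif CAAAGTCCA, which can overlap it, was in 1 of the 49, in Slc3a1, and in 0.391% of all. A match here describes letters in a window and is no measurement of binding.

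The thick ascending limb was bright as well, led by uromodulin. Of its 16 genes, 13 were well above background on all 4 arrays, with a median at the 89.3rd percentile, and Cldn14 and Irx1 were above background on none. Umod, the most abundant protein of normal urine, read 9.09, 8.35, 8.75 and 10.03. The salt cotransporter Slc12a1 read 5.42, 4.34, 5.10 and 6.22, and the phosphatase inhibitor Ppp1r1a read 5.75, 5.74, 5.99 and 6.06. Heterozygous 2 was the highest for all 3 genes and wild-type 2 the lowest. Of 8 thin limb genes, 4 were above background on all 4 arrays, while Bst1, Slc14a2 and Sptssb were above it on none. Slc14a2 is a urea transporter of the inner medulla and also stands on the list for that tissue.

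By each gene's brightest probe, distal tubule genes ranked near the thick limb, and collecting duct genes lower. With the mean of a gene's probes the distal convoluted median was 84.1, below the thick limb (89.2) and intercalated cells (86.6). The distal convoluted tubule had 8 of 10 genes on all 4 arrays (median percentile 91.9), with the thiazide-sensitive cotransporter Slc12a3 at 3.91, 3.93, 4.82 and 4.69; the calcium binder Pvalb was above background on none. The connecting tubule had 7 of 8 (87.6), with tissue kallikrein Klk1 at 7.06, 6.71, 7.94 and 7.31 and the calcium binder Calb1 at 3.76, 3.41, 3.80 and 4.17. For Slc12a3 and Klk1 both heterozygous samples read above both wild-type samples. Intercalated cells, which secrete acid or base, had 14 of 17 (83.9), with the proton pump subunit Atp6v1g3 at 7.09, 6.97, 7.17 and 7.12. Principal cells had 8 of 15 (73.5): the water channel Aqp2 read 6.42, 6.29, 6.68 and 7.10, and Elf5, Stc1 and Tmem45b were above background on none.

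In the glomerulus, 16 of 21 podocyte genes were well above background on all 4 arrays and none of the 21 was missing from all of them, with a median at the 85.6th percentile. That median was 77.5 with the mean of a gene's probes. Podxl, the charged coat protein of podocytes, read 3.19, 2.68, 3.38 and 3.55. Vegfa, the growth factor that podocytes make for the glomerular endothelium, read 4.98, 5.08, 5.41 and 5.11. The heterozygous samples were the higher pair for both genes. Parietal epithelium had 2 of 5 genes on all 4 arrays (median percentile 58.2). Of 6 macula densa and juxtaglomerular genes 4 were on all 4, while Nos1, the neuronal nitric oxide synthase of the macula densa, and Akr1b7 were above background on none.

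**Figure D2:**
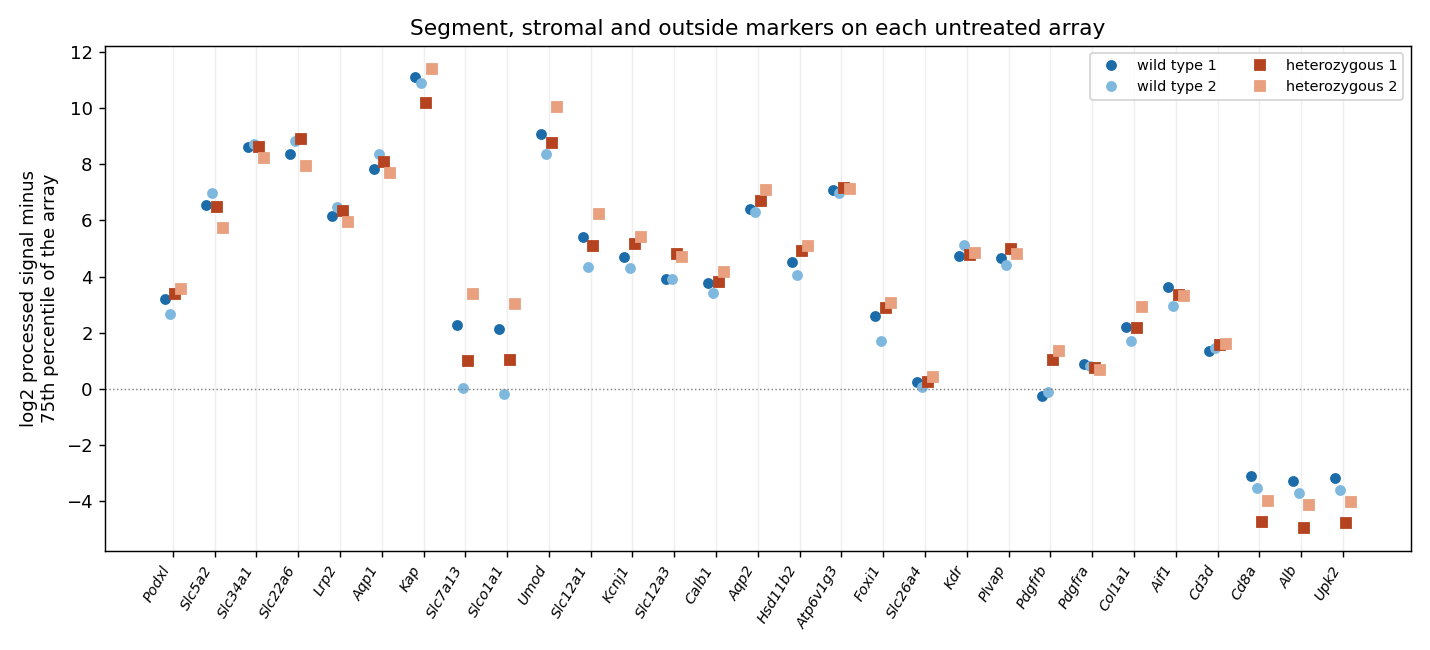
Log2 signal relative to each array's 75th percentile (vertical axis) of defining genes of the nephron and stroma in the 2 wild-type and 2 heterozygous samples, each sample a point. Umod spreads from 8.35 to 10.03, whereas Atp6v1g3 stays between 6.97 and 7.17.

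Stromal lists had median percentiles from 61.5 to 75.4, below each tubule list except principal cell and thin limb. Of 24 endothelial genes, 16 were above background on all 4 arrays (median percentile 71.8): the VEGF receptor Kdr read 4.74, 5.13, 4.76 and 4.83, and Plvap, a protein of endothelial fenestrae, read 4.66, 4.42, 4.97 and 4.80. Esam, Lyve1, Nos3, Ramp2 and Sox17 were above background on none. Fibroblast and matrix genes had 19 of 30 on all 4 (75.4), with Col1a1 at 2.22, 1.70, 2.17 and 2.91, and Lum and Postn on none. Smooth muscle, pericyte and mesangial genes had 7 of 18 (61.5), with the smooth muscle actin Acta2 at -0.28, -1.01, 0.22 and 0.72, and Cnn1, Itga8, Lmod1 and Ndufa4l2 on none. In RNA of whole tissue, fewer cells of a type and less RNA per cell cannot be told apart.

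Most macrophage and dendritic cell genes were seen, and most lymphocyte and granulocyte genes were not. Of 25 macrophage and dendritic cell genes, 16 were on all 4 arrays (74.2): lysozyme, Lyz2, read 5.27, 4.60, 4.89 and 5.08, and Aif1 read 3.62, 2.97, 3.33 and 3.31. Adgre1, Cd14, Cd163, Itgax, Mrc1, Msr1 and RT1-Ba were above background on none. Lymphocyte genes had 3 of 21 on all 4 (44.8) and 14 on none, among them Cd3e, Cd8a, Cd79a and Ms4a1, though Cd3d, another chain of the T cell receptor complex, read 1.36, 1.44, 1.58 and 1.60. Neutrophil and mast cell genes had 1 of 15 on all 4 (33.8) and 11 on none.

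Red cell genes differed among the samples through a single one. Hba-a1, an alpha globin, read 10.84, 8.04, 10.69 and 11.16, and Hbb-b1, a beta globin, read 8.24, 5.54, 7.89 and 8.30. Alas2, the first enzyme of haem synthesis in red cells, read 0.94, -1.67, 1.52 and 1.09. Wild-type 2 was the lowest for all 3 genes, and the other 3 samples lay close together. Of 21 erythroid genes, 8 were on all 4 arrays and 8 on none, including Gata1, Klf1 and Epor.

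Genes of neighbouring and foreign tissues were checked as well. Of 19 liver and pancreas genes, 15 were above background on none of the 4 arrays. Cela1, an elastase, was on all 4 (2.83, 2.63, 2.21 and 3.10) by 1 probe, while its other probe read -3.81 and was above background on none. Of 13 inner medulla and urothelium genes, 7 were on none, including the uroplakins Upk1b, Upk2, Upk3a and Upk3b, while Tp63 (mean 6.17) and Krt7 (6.68) each had another probe far lower, at -3.81 and 0.07. Of 14 adrenal genes, 8 were on none, including Star and Cyp11b1, but Th, the tyrosine hydroxylase of catecholamine synthesis, read 2.92, 3.03, 3.09 and 3.31 and Cyp21a1, the steroid 21-hydroxylase, read 3.50, 2.05, 2.06 and 2.51. Adipose genes had 8 of 12 on none, with Adipoq, adiponectin, at 0.78, 0.49, 0.86 and 1.49. Nerve and Schwann cell genes had 6 of 11 on none. The part of attached tissue in any of these values was not tested.

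Lists of energy metabolism and translation had high median ranks. Their dimmest members stood at percentile 88.0 for ribosomal proteins, 90.7 for oxidative phosphorylation, 68.6 for gluconeogenesis and 43.3 for fatty acid oxidation. All 44 cytosolic ribosomal protein genes were on all 4 arrays (median percentile 99.3), as were all 34 of oxidative phosphorylation (99.0), led by Atp5me at 9.39, 9.58, 8.95 and 9.07. All 11 gluconeogenesis genes were on all 4 (96.9): Pck1, the enzyme that commits carbon to glucose synthesis, read 5.76, 5.78, 5.88 and 5.19, and the glucose-6-phosphatase gene G6pc1 read 6.52, 7.01, 7.05 and 6.05. For both genes heterozygous 2 was the lowest sample. Fatty acid oxidation had 27 of 28 (92.9), with Cyp4a2, a fatty acid hydroxylase, at 8.25, 8.09, 7.64 and 8.06. The exception was Pdk4, a kinase that shuts off pyruvate oxidation in fasting.

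Iron, antioxidant and stress genes matter for an iron-driven injury, so their resting levels are given. The ferritin chains were among the brightest genes of the cortex, with Fth1 at 9.08, 9.16, 9.06 and 9.31, while 4 of 23 iron genes (Hfe, Hmox1, Steap3 and Tfr2) were above background on none. Of 28 NRF2 targets and glutathione enzymes, 21 were on all 4 (93.8), led by Gpx4, which reduces lipid peroxides, at a mean of 8.97. The catalytic subunit of glutathione synthesis, Gclc, read 6.34, 3.96, 4.90 and 7.20, higher on 1 slide than on the other, and its partner Gclm and the cystine importer Slc7a11 were above background on none. The metallothioneins Mt1 and Mt2A had means of 8.79 and 9.11. Of 27 tubular injury genes, 15 were on all 4 (68.8) and 6 on none: Atf3, Ccl2, Havcr1, Krt19, Krt20 and Plaur. Tff3, a trefoil peptide on that list, read 6.22, 4.08, 4.35 and 7.50.

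Genes of division and DNA repair were among the dimmest cell functions. Of 35 cell cycle genes, 11 were on all 4 arrays (59.1) and 13 on none, among them Top2a, Ccnb1, Ccna2 and Aurkb, while Ccnd1, the cyclin of early G1, read 1.79, 2.46, 1.81 and 1.71. Of 31 genes of homologous recombination and BRCA1 partners, 12 were on all 4 (59.2) and 9 on none, among them Brca2, Brip1, Chek1, Chek2, Fancd2, Palb2, Rad50 and Xrcc2. Bap1, a deubiquitinase named for its binding to BRCA1, read 2.93, 3.10, 2.91 and 3.11. Of 24 p53 targets, 10 were on all 4 (62.1), and the death receptor Fas and Pmaip1 were among 5 on none.

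Of 19096 genes with a plain symbol, 8520 (44.6%) had a probe well above background on all 4 untreated arrays and 7031 (36.8%) on none. Only 2 genes were above background in both wild-type and neither heterozygous sample, against 898 the other way round, and the heterozygous arrays were the brighter ones throughout. Of these 7031, 4237 were also above background on no Fe-NTA array, and 46 were above background on all 12. Havcr1, the kidney injury molecule KIM-1, was on none of the 4 (mean -3.72) and had a mean of 3.51 over the treated arrays. The drug pump Abcb1b reached 3.48, the cytokine Il24 2.65, the stress factor Atf3 0.66 and the chemokine Ccl2 0.30. A gene at the floor has only an upper limit in the untreated cortex, so no fold is given.

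The genes that varied most among the samples mostly divided them by slide. The median SD over the 4 samples was 0.230 for the 11598 genes whose probe was well above background on all of them. Rbp4, the retinol carrier, read 5.37, 0.49, 0.40 and 4.00, and Agt, angiotensinogen, read 3.61, 0.56, 1.75 and 4.81. Resp18, a secretory granule protein, read 4.73, 1.36, 1.03 and 5.06. In all 3 genes wild-type 1 and heterozygous 2 were far above the other pair, on the other slide. Of the 30 genes with the largest SD, 23 had both samples of that slide above both others and 2 had them below, against 1965 and 2042 of the 11598. Over those 11598 genes more, 5298, divided without overlap by genotype. Whether the slide or the animals on it set these values was not tested.

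**Figure D3:**
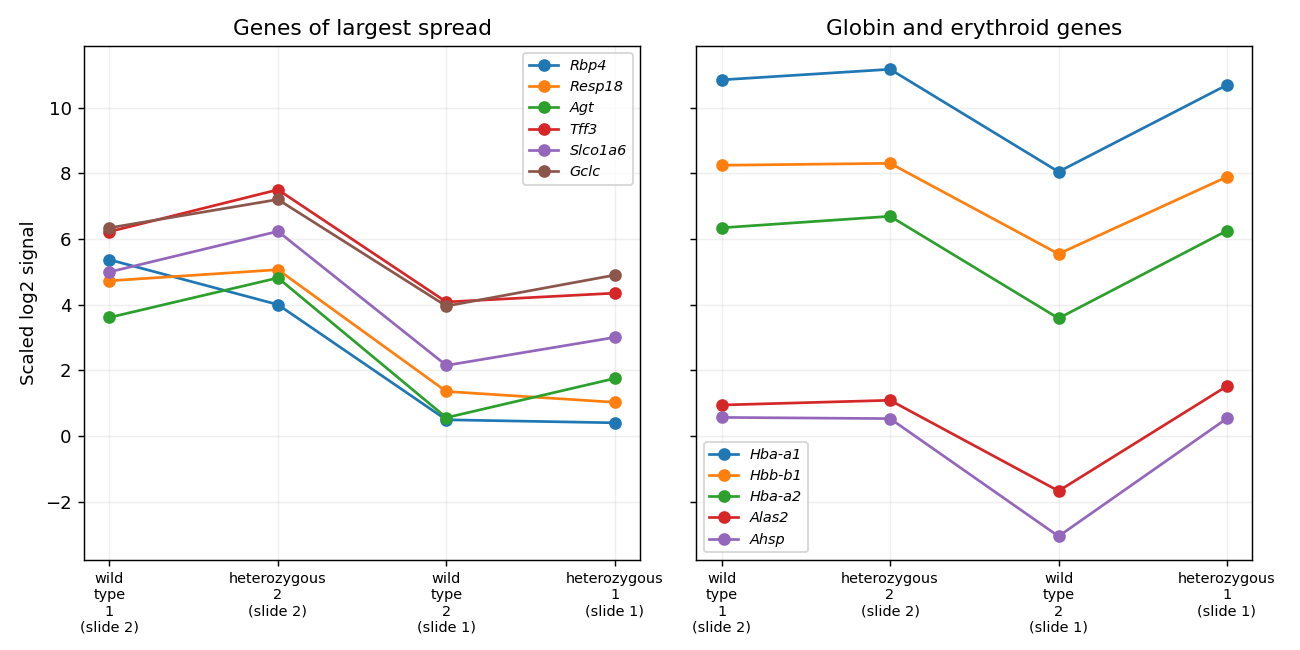
Log2 signal relative to the 75th percentile (vertical axis) in each of the 4 untreated samples (horizontal axis, ordered by slide) for 6 genes of large SD at left and 5 red cell genes at right, with lines that only join the points of a gene. At left both samples of slide 2 stand above both of slide 1, with Rbp4 from 0.40 to 5.37, and at right wild-type 2 alone is low.

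The comparison of heterozygous with wild-type cortex asks which transcripts 1 altered Brca1 copy goes with before any iron is given. No gene was called: of 16007 tested, 0 (0%) passed an adjusted p of 0.05 in limma's moderated test with Benjamini-Hochberg adjustment, and the smallest adjusted p was 0.253. At an unadjusted p under 0.05 there were 738 genes (4.61%), of which 516 (3.22%) were higher and 222 (1.39%) lower in the heterozygous samples. Without wild-type 2, 2 genes passed, Edrf1 (-4.72) and the transcript BG376394 (-2.23), both lower in heterozygous and named after their values were seen. The labels do not say whether the samples came from separate rats, and the p-values can speak only for the spread among the arrays at hand. The 95% interval of a difference had a median half-width of 0.83 log2 units, and smaller differences were not resolved for a typical gene.

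Brca1 itself could not check the genotype labels. Its brighter probe read -3.31, -2.70, -0.04 and -3.44 and was well above background in heterozygous 1 alone, and its other probe was above background on none. The heterozygous minus wild-type difference was 1.27 (SE 0.81, 95% interval -0.46 to 2.99, limma adjusted p = 0.999), and it turned to -0.44 without heterozygous 1. No source used here says whether either probe lies within the altered stretch. Of 20 genes nearest to Brca1, 14 were tested and 0 were called. Among them G6pc1 had a difference of -0.21 in untreated cortex, and Tmem106a had the lowest at -0.67, with both heterozygous samples below both wild-type samples.

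The genes with the smallest unadjusted p lay near the floor when higher in heterozygous samples. Sorcs1, a sorting receptor, read -2.40, -2.09, -0.92 and -0.26, and Tmem121, a membrane protein, read -2.35, -2.72, -0.03 and -0.60. Both were well above background in neither wild-type sample, so that only bounds can be given at the reported setting: at least 1.71-fold higher for Sorcs1 (limma adjusted p = 0.253) and at least 2.07-fold for Tmem121. Of the 516 genes, 356 were above background in no wild-type sample. Among plain symbols the others were Mrgprx3 (at least 1.08-fold), Rbms3 (at least 1.04-fold), Cdk6 (at least 1.29-fold), Rasa4, Tmem132a, Pip4k2a, Cpt1b and Pdgfrb. These bounds did not hold under normexp, a model-based background correction run here with an offset of 50 added to each signal. The differences there were 0.11 log2 units for Sorcs1, 0.31 for Tmem121 and 0.02 for Cdk6. Such an offset shrinks log2 differences of dim probes by itself, and the 75th percentile signal of these arrays was 20.1 to 58.5. Mrgprx3, Rbms3, Rasa4, Tmem132a and Pip4k2a turned lower in heterozygous samples under normexp (the last 3 also with dim values raised to the detection limit), and Cpt1b when only probes on all 4 arrays were used (-0.39).

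Pdgfrb, the PDGF receptor of pericytes and mesangial cells, was measured on all 4 arrays and stayed higher in heterozygous samples under all 18 alternatives. It read -0.25, -0.12, 1.02 and 1.35, so both heterozygous samples stood above both wild-type samples. The difference was 1.38 (SE 0.32, 95% interval 0.69 to 2.06), or 0.73 under normexp, and it was not called (limma adjusted p = 0.521). In the Fe-NTA samples the same difference was -0.16 after 1 week and 0.02 after 3 weeks.

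Among genes lower in heterozygous samples, Car3 had the smallest p. Car3, a carbonic anhydrase abundant in muscle and fat, read 2.61, 1.86, 0.00 and -1.51. Its difference was -2.99 (SE 0.60, 95% interval -4.27 to -1.70, limma adjusted p = 0.439), and it kept its sign under every alternative run, at -1.26 under normexp. After Fe-NTA the difference was 0.87 at 1 week and 1.86 at 3 weeks, and the untreated difference minus the mean of these was -4.35 (limma adjusted p = 0.256). Mcub, which restrains the mitochondrial calcium uniporter, read 0.18, 0.35, -2.03 and -1.41, a difference of -1.98, or -0.64 under normexp. Dnajb9, a chaperone of the endoplasmic reticulum, had a difference of -1.31, and the adhesion protein Igsf5 one of -1.29. The list went on with Klk11, Ms4a6a, Clrn3, Ddx1, Nup37 and Pcgf6, and none of these was called. Floor values enter on this side too: the probe of Ms4a6a was well above background on none of the 4 arrays. Of the 222 genes lower at an unadjusted limma p under 0.05, 53 were above background in no heterozygous sample. Of these 53, 43 were above it in no untreated sample.

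**Figure D4:**
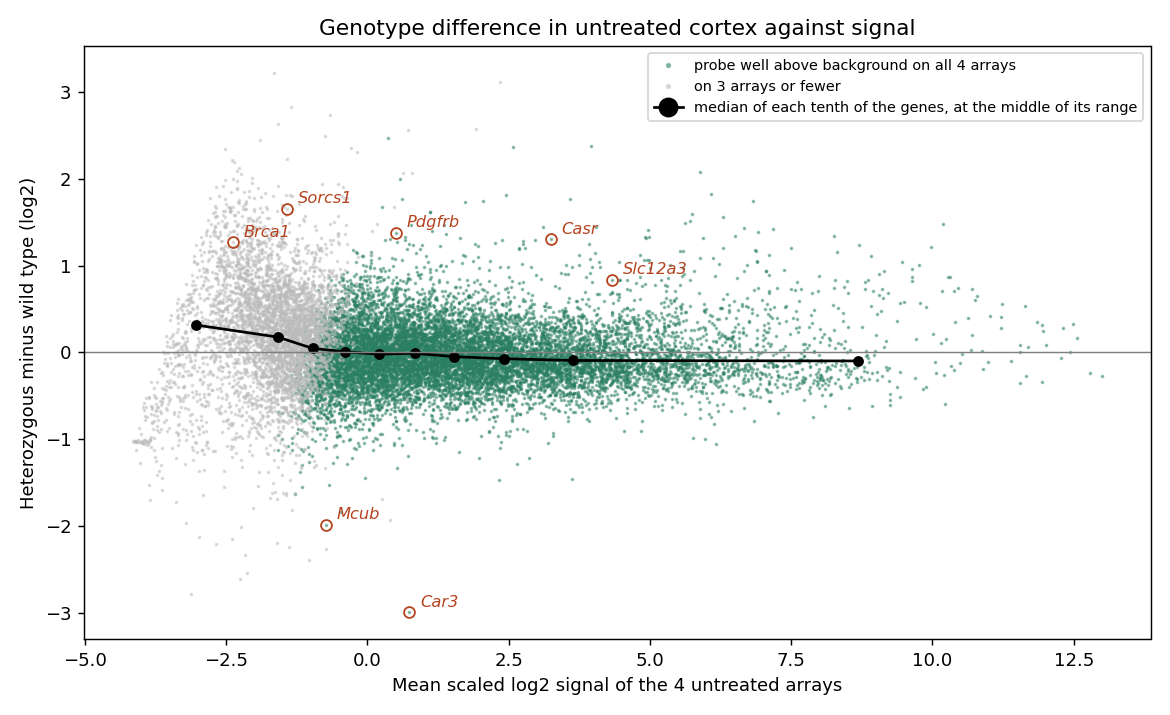
Heterozygous minus wild-type difference in log2 units (vertical axis) against mean untreated log2 signal (horizontal axis), each point 1 of 16007 genes, green where its probe was well above background on all 4 arrays and grey otherwise, with black points at the median of each 10% of genes. The dimmest 10% of genes have a median of 0.32 and the brightest 10% one of -0.10.

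The direction of the difference moved with signal. Among the dimmest 10% of genes the median difference was 0.32 and 66.3% were positive, and in the brightest 10% it was -0.10 and 38.9% were positive. The heterozygous arrays were the brighter ones, and the part of array brightness in this slope was not tested. A dim gene could also enter the test by being well above background in the untreated heterozygous group alone, which favours positive differences among dim genes. With no filter the median difference of all genes was -0.35, and the part of the filter in the slope was not tested. Among the 11598 genes on all 4 arrays, 236 had an unadjusted p under 0.05, 115 higher and 121 lower, with a smallest limma adjusted p of 0.439. The groups did not overlap for 43.8% of all genes tested, 20.5% with the heterozygous samples higher and 23.3% with them lower, and counts for gene lists below are to be read against these shares.

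By list, the thick limb, distal and collecting duct segments tended to higher values in the heterozygous samples, and none of their genes was called. The thin limb had a median of 0.05 over 5 genes, with 1 higher and 1 lower without overlap, and its sign held in 13 of 18 alternatives. The thick limb had a median difference of 0.42 over 14 genes tested, against -0.01 over all genes; 6 were higher without overlap and 1 lower. Casr, the calcium-sensing receptor, read 2.82, 2.37, 3.60 and 4.19, and the potassium channel Kcnj1 read 4.70, 4.32, 5.17 and 5.43. Both heterozygous samples were above both wild-type samples in each. Casr differed by 1.30 (SE 0.43, limma adjusted p = 0.889) and Kcnj1 by 0.79 (adjusted p = 0.899). The median for the thick limb was 0.19 on slide 1 and 0.56 on slide 2.

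The later segments gave like values. The distal convoluted tubule had a median of 0.39 over 9 genes, with Slc12a3 at 0.84 (SE 0.30, limma adjusted p = 0.928), and the connecting tubule had 0.40 over 7, with Klk1 at 0.74. Of 15 intercalated cell genes, 14 had a positive difference and 10 were higher without overlap, with a median of 0.41. Foxi1, the factor that sets the intercalated cell type, differed by 0.82, and the anion exchanger Slc4a1, also a red cell gene, by 0.64. Of 12 principal cell genes, 8 were higher without overlap (median 0.30), among them Aqp2 at 0.53 and the cortisol-inactivating enzyme Hsd11b2 at 0.71. These 5 segments kept a positive median under all 18 alternatives run, but its size moved. The alternatives reuse the same arrays, so a kept sign is no replication. The thick limb median was 0.10 without heterozygous 2 and 0.90 under normexp, and the principal cell median was 0.12 under normexp. The intercalated median was 0.18 within slide 2 and 0.21 without wild-type 2, the distal convoluted one 0.18 within slide 2 and 0.19 without wild-type 2, and the connecting tubule one 0.22 without wild-type 2 and likewise without heterozygous 2.

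The same differences after Fe-NTA are given for 5 of these genes, without Kcnj1, Klk1 and Slc4a1, so they do not stand for whole segments. At 1 week Casr stood at 1.39, Slc12a3 at 0.91, Hsd11b2 at 0.82, Foxi1 at 0.63 and Aqp2 at 0.41. At 3 weeks Casr stood at 0.03, Slc12a3 at -0.84, Hsd11b2 at -0.74, Foxi1 at -0.68 and Aqp2 at -0.74. The untreated and 1-week differences had 1 sign for these 5 genes, and the 3-week ones the opposite sign except for Casr. Of all 16007 genes tested, 51.3% kept the untreated sign at 1 week and 50.4% at 3 weeks. For the 738 genes with an unadjusted limma p under 0.05 these shares were 53.4% and 55.1%. The difference between untreated and treated genotype effects was called for 0 genes (0%), with 0.949 as the adjusted p of each of the 5 in limma.

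**Figure D5:**
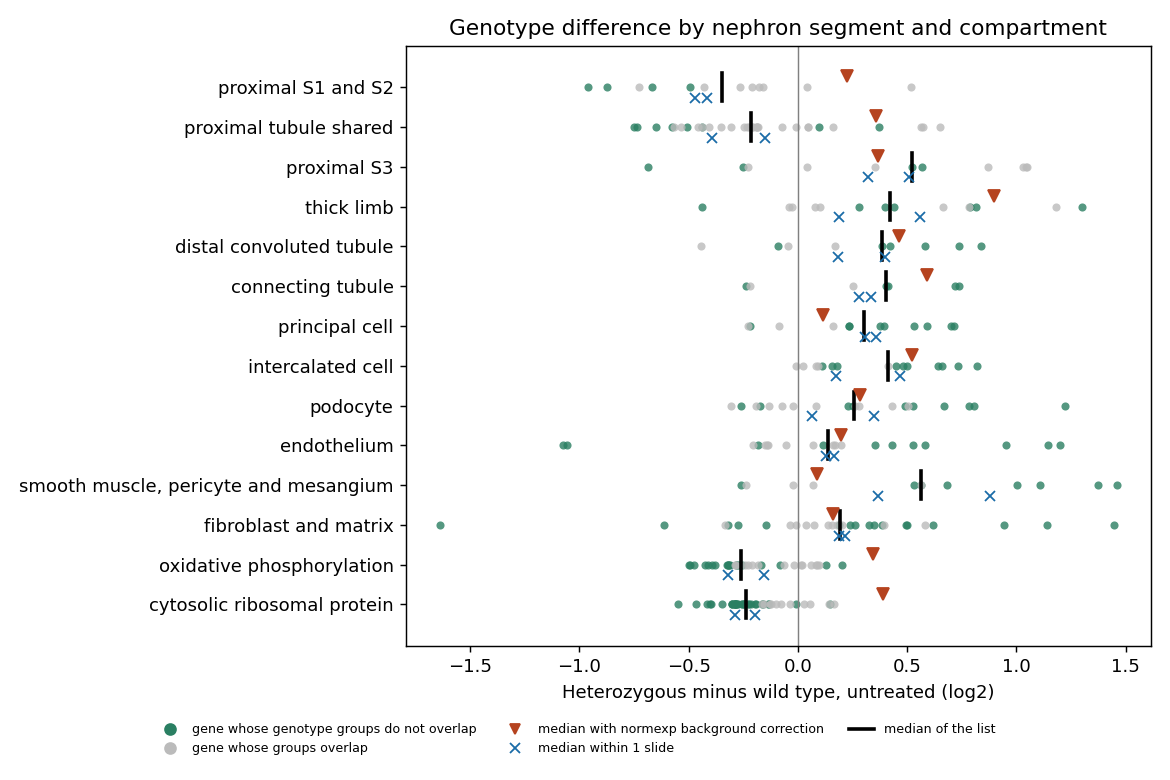
Heterozygous minus wild-type difference in log2 units (horizontal axis) for the tested genes of 14 lists, each gene a point (green where the genotypes do not overlap, grey where they do), with black bars at medians, triangles at medians under normexp and crosses at medians within each slide. Thick limb (0.42) and intercalated cell (0.41) medians lie right of 0, and ribosomal (-0.24) and early proximal medians (-0.35) left of it.

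Podocytes and stroma leaned the same way with a wide spread. The podocyte median was 0.26 over 20 genes, the endothelial one 0.14 over 20 and the fibroblast one 0.19 over 28. They were lowest at 0.07 within slide 2, 0.09 without heterozygous 2 and 0.11 without wild-type 2, in that order. Smooth muscle, pericyte and mesangial genes had a median of 0.56 over 12 genes, with 7 higher and 1 lower without overlap; it was 0.09 under normexp, 0.15 with dim values raised to the detection limit and 0.24 without heterozygous 2. Beside Pdgfrb these included Acta2, which differed by 1.11, and Myh11, the smooth muscle myosin, which was above background in no wild-type sample.

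Bright metabolic lists leaned the other way, and their sign turned under normexp with its offset of 50. Whether the background correction or the offset turned it was not tested. The median was -0.35 for early proximal genes, -0.22 for shared proximal genes, -0.24 for ribosomal proteins, -0.26 for oxidative phosphorylation, -0.24 for gluconeogenesis and -0.20 for fatty acid oxidation, and under normexp these turned to 0.23, 0.36, 0.39, 0.34, 0.30 and 0.35. Of 44 ribosomal protein genes, 32 were lower without overlap, as were 18 of 34 in oxidative phosphorylation, against 23.3% of all genes. Rps24 read 8.08, 8.07, 7.48 and 7.74, with both heterozygous samples below both wild-type samples. Uqcrc2, a core protein of complex III, read 4.96, 5.23, 4.72 and 4.61, and Slc37a4, the glucose-6-phosphate transporter, read 7.00, 7.45, 6.61 and 6.27. Both differed downward without overlap, by -0.43 and -0.78, and neither was called. Cpt1a, the gate of mitochondrial fatty acid import, differed by -0.63.

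A pair of lists turned on single samples. The erythroid median was 1.20 over 13 genes and 0.02 without wild-type 2, whose globins were low. The S3 proximal median was 0.52, and -0.09 without wild-type 2 and -0.01 without heterozygous 2. Genes of homologous recombination and BRCA1 partners had a median of 0.06 over 22 genes, with 3 higher and 7 lower without overlap. Its sign held in 11 of 18 alternatives, over which the median ran from -0.19 to 0.12. Rad54l, a motor of strand exchange, read -0.72, -1.74, -2.53 and -3.95 and was above background in wild-type 1 alone. It was not called. Atr, the kinase that senses stalled replication, differed by -0.58, and the p53 target Tigar, a regulator of glycolysis, by -0.94.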

How the data were processed

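Spot intensities were deposited by the authors as 1-colour scanner files made with Agilent Feature Extraction 10.7, per the submitters' processing notes, and the flag for signal well above background was taken from them. Log2 values from the table the authors deposited served as an alternative. Each array's log2 processed signal was centred on its 75th percentile over 45598 probes. Each gene was represented by its brightest probe on average over the 16 arrays. Probes had to be well above background throughout 1 or more of the 6 groups, leaving 16007 genes, fitted over all 16 arrays as 6 group means with limma 3.58.1 in R 4.3.3, two-sided, with Benjamini-Hochberg adjustment (10 residual degrees of freedom). The fit was tested on simulated data. The number of arrays limits the precision. Names came from RefSeq accessions (GRCr8) for 21229 probes, and 24230 kept the file's name. Samples were grouped by their titles. Genes named were the brightest of each list, those above background on no array, and those with the smallest p. The members and lists were chosen with earlier results of these data known. Some list members are not reported here. Alternatives covered background, scaling, probe choice, filter, blocks, slides and leaving out each array. All of them reuse the same arrays, so a sign kept across them is no replication.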

Additional observations from a re-analysis of the deposited data

How the results depend on the processing

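The untreated comparison gave 0 genes called in limma under every alternative except leaving out wild-type 2 (range over the arrays left out 0 to 2; a lone remaining array is assumed to vary like the other groups). Same-numbered samples deviated apart (r = -0.277). With 2 samples a group, the same-slide value is this r with its sign turned and no second result. It cannot decide whether the samples are paired. With the replicate number as a block 0 genes were called, Brca1 differed by 1.27 (limma adjusted p = 0.845) and 878 genes had an unadjusted p under 0.05. The crossed block, which is the slide and was added after seeing the data, gave 0 called and 1932 genes. That unadjusted count, 738 as reported, was 1928 with no filter, 279 with probes on all 4 arrays, 1401 with the 4 arrays alone, and 475 to 784 over arrays left out. Brca1 turned to -0.13 within slide 2 and was 2.66 within slide 1; it ranged from -0.44 to 2.97 over arrays left out and was not tested with probes on all 4 arrays. The genotype difference after 1 week of Fe-NTA, with 90 genes called (0.562%), gave 2 with normexp, 56 with the percentile over detected probes, 1 with no filter, 176 with probes on all 4 arrays and 34 with the slide as a block. After 3 weeks 0 genes became 1 with normexp and 1 with values raised to the detection limit. No filter moved the median difference of all genes to -0.35. Genes above background numbered 12065 on at least 1 array and 10603 on at least 2. Of the 30 brightest genes, 28 were shared with normexp and 23 with the mean of a gene's probes. With 2 samples a group and dim probes near the floor, differences of dim genes stay bounds. The cause of these shifts was not tested.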

Other observations

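Clock genes were read from samples whose time of day the labels do not give. Of 18 circadian genes, 11 were well above background on all 4 arrays (median percentile 76.7) and 6 on none. Dbp, an output factor of the clock, read 4.93, 5.36, 5.03 and 4.88, and Per1, a repressor of the clock, read 2.80, 2.33, 3.69 and 2.29. Dbp was even among the samples, while Per1 was highest in heterozygous 1. Bmal1 and Npas2, both activators of the clock, and Per2 were above background on none.

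Antigen presentation genes were well seen and interferon targets partly so. B2m, the light chain of class I molecules, read 6.02, 6.20, 5.98 and 5.96, and 16 of 25 MHC genes were on all 4 arrays (80.5). Of 20 interferon response genes, 11 were on all 4 (72.0). Irf7, a factor that drives interferon production, read 0.69, -0.76, -0.76 and 0.10, higher in the slide pair of wild-type 1 and heterozygous 2. Among 24 immediate early genes, 8 were on none, including Fos, Fosb and Junb, and Jun read 3.96, 3.88, 3.82 and 4.11. Cholesterol synthesis genes had 14 of 17 on all 4 arrays (82.7), led by Hmgcs1 at 3.65, 3.43, 3.36 and 3.64.

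The slide contrast among untreated samples, run after the values were seen, called 2 genes in limma: LOC100911353, which read 2.86, -0.08, -1.25 and 4.78, and Pm20d1, an amidase, which was higher on the other slide (limma adjusted p = 0.0316 for each). Among the treated arrays the same contrast called 0 genes, with 714 at an unadjusted p under 0.05 against 718 in the untreated.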
